A study of Homo sapiens with 2 samples.

Results

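The genes described here are the 3 ORMDL genes and 6 genes of sphingolipid synthesis, ORMDL1, ORMDL2, ORMDL3, SPTLC1, SPTLC2, SPTSSA, KDSR, CERS2 and DEGS1. They are 9 of the 57110 gene entries in the deposited table, and they have 23 of its 99493 transcripts. The genes were chosen by name, with earlier results of these data in view, so their values are a description and carry no test. IGROV1, SK-OV-3 and COV504, established human ovarian cancer lines, were pooled in equal parts, with no treatment named in the labels. The pool was then read as single cells on 2 platforms, an Illumina library and a nanopore PromethION library that reads whole cDNA molecules. Each platform had 1 library, both lists held the same 2462 cell barcodes, and all expression values here come from the PromethION library. No label assigns a barcode to a line, so the cells were split by marker genes into 3 classes, and each class comes from this single library with no replicate.

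Sphingolipids are membrane lipids built on a long-chain base, and every cell can make them from serine and a fatty acyl-CoA. Serine palmitoyltransferase, a complex of SPTLC1, SPTLC2 (or SPTLC3) and a small subunit such as SPTSSA, carries out the first and rate-limiting step in the endoplasmic reticulum. KDSR reduces its product, ceramide synthases such as CERS2 add a fatty acid, and DEGS1 makes the double bond that turns dihydroceramide into ceramide, the parent of sphingomyelin and the glycosphingolipids. The small membrane proteins ORMDL1, ORMDL2 and ORMDL3 bind serine palmitoyltransferase and hold it back when ceramide is plentiful.

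The results on transcripts turn on which exons are joined in ORMDL1, SPTLC1, ORMDL3 and CERS2, so the joins that tell their forms apart are shown first. In each line the 15 lower-case bases end an exon and the 15 capitals begin the next one, read 5′ to 3′ on the minus strand from the GRCh38 genome at the exon ends of GENCODE release 29. All 23 transcripts have the same ends in that release as in the authors' table. ORMDL1 lies on chromosome 2, SPTLC1 on chromosome 9, ORMDL3 on chromosome 17 and CERS2 on chromosome 1.
ORMDL1 exon 1 to the next exon, form without the extra exon (ENST00000392350): ggagtggggcggcggAGCAAACATGAACGT
ORMDL1 exon 1 to the extra exon (ENST00000392349): ggagtggggcggcggCATGTACCTTCCACA
ORMDL1 extra exon to the exon with the start codon (ENST00000392349): tgacacactggctcgAGCAAACATGAACGT
SPTLC1 exon 5 to 6, long form (ENST00000262554): tttatggcacatttgATGTTCATTTGGATT
SPTLC1 exon 5 to 6, short form (ENST00000337841): tttatggcacatttgAATGAAGATGAAGGA
ORMDL3 exon 1 to 2 (ENST00000304046): cttcggccccacacgAACAGCAGAGAGGGG
ORMDL3 exon 1 to 2 (ENST00000579695): cttcggccccacacgCAGAGAGGGGCAGCA
CERS2 exon 1 to 2 (ENST00000271688): caacgctgccgccggCTACTCCCTCTTGAT
CERS2 exon 1 to 2 (ENST00000368954): caacgctgccgccggGATGCTCCAGACCTT

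The extra exon of ORMDL1 is 110 bases long, lies at chr2:189783014-189783123 and is untranslated. It was joined to the same exon 1 as in the form without it, whose last base is 189784269, so both forms belong to the same upstream region. That region is shown for ORMDL1, whose forms differ, and for SPTLC2, the gene whose level differed most between classes. The stretches are the part of the RefSeq promoter window (GRCh38.p14, minus strand, 250 bases before the annotated start) that lies before every listed transcript start. They cover chr2:189784372-189784589 and chr14:77616774-77616887, and capitals mark matches to CCAAT and to GGGCGG on either strand.
ORMDL1 upstream region: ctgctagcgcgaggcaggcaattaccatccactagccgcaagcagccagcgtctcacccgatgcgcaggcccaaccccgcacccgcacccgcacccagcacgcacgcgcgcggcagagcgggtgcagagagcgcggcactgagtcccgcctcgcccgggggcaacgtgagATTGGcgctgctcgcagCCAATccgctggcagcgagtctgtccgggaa
SPTLC2 upstream region: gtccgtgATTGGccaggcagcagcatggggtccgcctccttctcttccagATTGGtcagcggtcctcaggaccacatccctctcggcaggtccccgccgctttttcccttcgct

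An entry was found for 8 of the 9 genes, with none matched for CERS2. Over the full 250 bases, both strands searched, the ORMDL1 window shown held 2 CCAAT matches and no GGGCGG match, and the SPTLC2 window held 3 CCAAT and 2 GGGCGG matches. A further ORMDL1 window in the table (chr2:189783994-189784243) held no CCAAT and 1 GGGCGG match. CCAAT was present in 32.0% of the 35116 windows in the table and GGGCGG in 42.6%. TATAAA was present in 10.7% of windows and in none of these. These are matches of letters, and no binding was measured.

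The classes were selected on marker counts among barcodes with at least 1000 counts. A barcode belonged to a class when at least 75% of its marker counts came from ERBB2, NNMT, TSPAN1 and DHRS2 (ERBB2-high), from RARRES2 and TMEM100 (RARRES2-high), or from FOLR1, CLDN3, DEFB1 and CXCL14 (FOLR1-high). They held 648, 472 and 765 barcodes with a median of 4953, 6261.5 and 5289 counts and with 3442383, 3366914 and 4514999 counts in all. A further 244 barcodes with enough counts fell in no class, and 333 had too few. Near the marker limit, 84 classed barcodes had a share from 75 to under 80% and 40 unclassed ones a share from 70 to under 75%, while the lowest total kept was 1009 and the highest left out was 989. Beyond a marker count above 0, no minimum of marker counts was set, and the median per barcode was 10, 11 and 8 in the 3 classes. At a marker limit of 90% the classes held 528, 285 and 707 barcodes, so RARRES2-high lost the most. Scrublet called 10, 11 and 9 of the classed barcodes doublets, and they were kept. Of the markers listed for SK-OV-3, those expected high were highest in the ERBB2-high class: STARD3 stood at 214 CPM (counts of the gene divided by all counts of the class, times 1000000) against 22.3 and 13.3, while GRB7 stood at 56.4 CPM against 2.67 and 28.8, under 2-fold over FOLR1-high. CDKN2A, expected low, had 1 count there, 0 in RARRES2-high and 88 in FOLR1-high. CDKN2A was therefore not lowest in that class alone, and no line name is given to the other classes. Of the markers of other cell types, PTPRC, CD3E and COL3A1 had 0 or 1 count in each class and PECAM1 at most 8, whereas COL1A1, a collagen also made by mesenchymal-type tumour cells, stood at 95.6, 23.5 and 3.32 CPM. Its part in the values below was not tested. PPP1R1B, a gene that was not used to define classes, had 1462 counts in ERBB2-high, 0 in RARRES2-high and 4 in FOLR1-high.

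Every interval is a 95% interval from counts (Poisson for CPM, Clopper-Pearson for shares, conditional binomial for ratios) and covers counting error only. A CPM summed over a class does not by itself tell fewer cells with a transcript from fewer transcripts per cell. Mitochondrial and ribosomal protein genes took 34.6% of the counts in FOLR1-high against 15.4% in ERBB2-high and 18.7% in RARRES2-high, which lowers the CPM of all other genes in FOLR1-high. The median log2 ratio over all gene entries was 0.22 for ERBB2-high over RARRES2-high, 0.45 for ERBB2-high over FOLR1-high and 0.18 for RARRES2-high over FOLR1-high, and without these genes it was 0.17, 0.09 and -0.12. Ratios are read against these shifts.

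Among the 9 genes, SPTLC2 and ORMDL3 differed most between the classes, SPTSSA differed least, and the enzymes after the first step were lowest in FOLR1-high. A gene was called when its CPM differed at least 2-fold with at least 50 counts in the higher class. In at least 1 pair of classes 6 of the 9 genes were called, where 59.3% of all 8528 entries with enough counts were, so the count itself is close to the background. For ERBB2-high against RARRES2-high, 2 genes were higher in ERBB2-high (21.8% of all entries) and 0 in RARRES2-high (13.8%). For ERBB2-high against FOLR1-high, 4 genes were higher in ERBB2-high (26.3%) and 1 in FOLR1-high (10.2%). For RARRES2-high against FOLR1-high, 2 genes were higher in RARRES2-high (22.7%) and 1 in FOLR1-high (13.7%). The median log2 ratio of the genes was 0.22, 0.97 and 0.68 in these 3 comparisons, beside the 0.22, 0.45 and 0.18 of all entries. When each ratio was centred on the median entry, an alternative chosen after seeing the data, 2 genes were called in all, ORMDL3 and SPTLC2. The split for ERBB2-high against FOLR1-high was then 1 higher and 1 lower among these genes, and 1172 higher and 1351 lower among all entries in place of 2105 and 820. For RARRES2-high against FOLR1-high it was 0 higher and 1 lower, with 1448 and 1318 over all entries in place of 1774 and 1070. For ERBB2-high against RARRES2-high the genes stayed at 2 and 0, while all entries moved from 1739 and 1102 to 1278 and 1381.

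**Figure D1:**
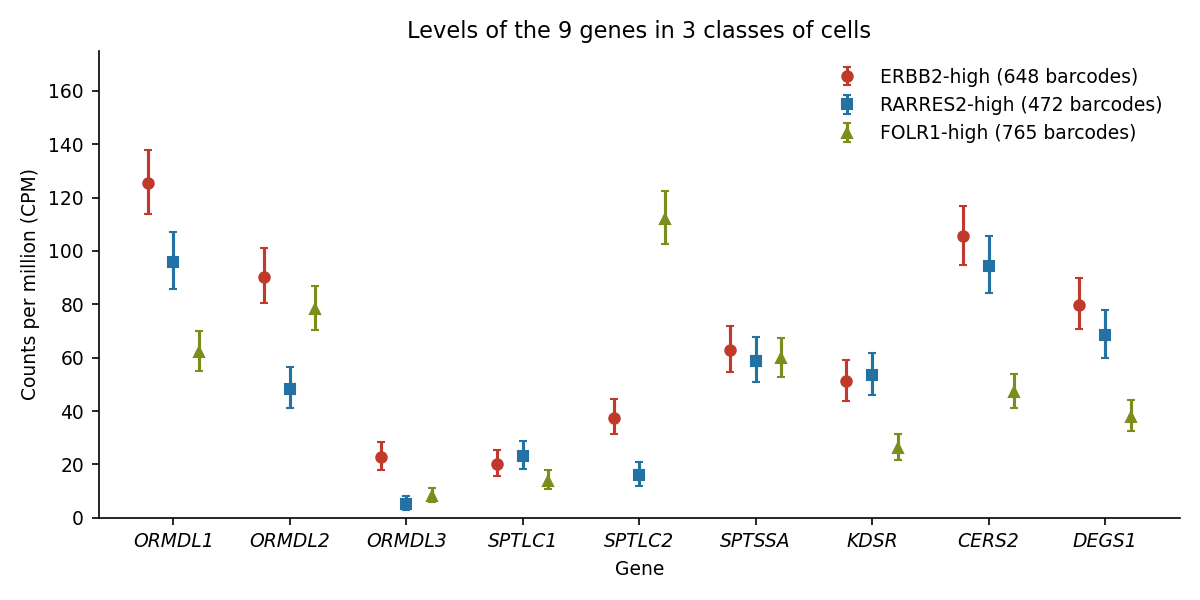
Level of each gene in CPM (vertical axis) in the 3 classes of cells, with bars for 95% Poisson intervals. SPTLC2 is highest in FOLR1-high at 112 CPM, ORMDL3 is highest in ERBB2-high at 22.7 CPM, and the 3 SPTSSA values lie between 58.8 and 62.7 CPM.

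Of the subunits of serine palmitoyltransferase, SPTLC2 carries the catalytic lysine that binds the pyridoxal phosphate cofactor. Its level was 112 CPM (102 to 122) in FOLR1-high from 506 counts, 37.5 CPM (31.3 to 44.5) in ERBB2-high from 129 counts and 16.04 CPM (12.0 to 20.9) in RARRES2-high from 54 counts. No 2 of these intervals overlap. FOLR1-high stood 6.99-fold (5.27 to 9.43) above RARRES2-high and 2.99-fold (2.46 to 3.66) above ERBB2-high, and ERBB2-high stood 2.34-fold (1.69 to 3.27) above RARRES2-high. Because all entries tended the other way, the excess of FOLR1-high over ERBB2-high was larger after centring, with a log2 ratio of ERBB2-high over FOLR1-high of -2.03 in place of -1.58. Cells with a count of SPTLC2 made up 44.6% of FOLR1-high, 18.1% of ERBB2-high and 10.6% of RARRES2-high, shares that also depend on depth. SPTLC2 had 1 listed transcript, ENST00000216484, at chr14:77505997-77616773 with 12 exons and 562 residues, so its counts have no form to divide among.

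SPTLC1, the partner subunit without which the complex has no activity, stood in the 3 classes at 20.04 CPM (69 counts) in ERBB2-high, 23.2 CPM (78 counts) in RARRES2-high and 14.0 CPM (63 counts) in FOLR1-high. No pair of classes differed 2-fold, and the widest ratio was 1.66 (1.18 to 2.35), RARRES2-high over FOLR1-high. FOLR1-high and ERBB2-high were not clearly separated for SPTLC1: ERBB2-high over FOLR1-high was 1.44 (1.01 to 2.05), the intervals of the 2 levels overlap, and the log2 ratio of 0.52 became 0.07 after centring. FOLR1-high, which was first for SPTLC2, was thus not first for SPTLC1. SPTSSA, the small subunit that raises the activity of the complex, was the flattest of the 9 genes at 62.7 CPM (216 counts), 58.8 CPM (198 counts) and 59.8 CPM (270 counts). Its ratios lay between 0.98 and 1.07, with intervals from 0.81 to 1.30, but the order of ERBB2-high and FOLR1-high depends on scaling: the log2 ratio was 0.07 on all counts and -0.38 after centring.

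The ORMDL family, which restrains that complex, summed to 238 CPM (222 to 255) in ERBB2-high, 149 CPM (137 to 163) in RARRES2-high and 149 CPM (138 to 160) in FOLR1-high. The sum was highest in ERBB2-high on each scaling, with log2 ratios of 0.67, 0.62 and 0.46 over RARRES2-high and 0.68, 0.31 and 0.23 over FOLR1-high on all counts, without mitochondrial and ribosomal protein genes, and after centring. The order of RARRES2-high and FOLR1-high was not stable, at 0.01, -0.31 and -0.18. Within the family the proportions differed. ORMDL1 made up 52.6% (49.1 to 56.1) of the family's counts in ERBB2-high, 64.2% (59.9 to 68.4) in RARRES2-high and 41.9% (38.1 to 45.7) in FOLR1-high. ORMDL2 made up 37.9% (34.6 to 41.3), 32.4% (28.3 to 36.7) and 52.6% (48.8 to 56.4), so it held the largest part of the counts in FOLR1-high alone. ORMDL3 made up 9.50% (7.58 to 11.7), 3.38% (1.98 to 5.36) and 5.51% (3.91 to 7.52). These shares do not depend on the scaling of the classes, although the genes were not compared per length.

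ORMDL1 stood at 125 CPM (432 counts) in ERBB2-high, 95.9 CPM (323 counts) in RARRES2-high and 62.2 CPM (281 counts) in FOLR1-high. The levels lay apart, with intervals of 114 to 138, 85.8 to 107 and 55.2 to 69.96 that do not overlap. ERBB2-high over FOLR1-high was 2.02-fold (1.73 to 2.35), and the log2 ratio of 1.01 became 0.56 after centring, so this call rests on the scaling. The 3 entries with the nearest pattern over the 3 classes, by Euclidean distance of centred log2 CPM among 3370 entries with at least 100 counts in each class, were NFU1 (0.01), CAMSAP2 (0.01) and ARL16 (0.02). With only 3 values a gene, such a likeness is a description.

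ORMDL2 stood at 90.3 CPM (311 counts) in ERBB2-high, 48.4 CPM (163 counts) in RARRES2-high and 78.2 CPM (353 counts) in FOLR1-high. RARRES2-high was the low class, 1.87-fold (1.54 to 2.27) under ERBB2-high and 1.61-fold (1.34 to 1.96) under FOLR1-high, short of the 2-fold limit. ERBB2-high and FOLR1-high were not separated: the ratio was 1.16 (0.99 to 1.35), and its log2 value of 0.21 became -0.24 after centring. Without mitochondrial and ribosomal protein genes, FOLR1-high passed 2-fold over RARRES2-high, with a ratio that sits at the limit itself. The nearest patterns were those of the joint entry of KRTCAP2 and AL713999.1 (0.01), the joint entry of POLD4 and AP003419.2 (0.05) and SARAF (0.05).

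ORMDL3, the family member whose locus is best known from genetic studies of childhood asthma, had the fewest counts of the 9 genes in 2 of the 3 classes. Its level was 22.7 CPM (17.9 to 28.3) from 78 counts in ERBB2-high, 5.05 CPM (2.94 to 8.08) from 17 counts in RARRES2-high and 8.19 CPM (5.77 to 11.3) from 37 counts in FOLR1-high. ERBB2-high stood clear of both others, 4.49-fold (2.63 to 8.09) over RARRES2-high and 2.76-fold (1.85 to 4.21) over FOLR1-high, and these calls remained after centring with log2 ratios of 1.95 and 1.02. RARRES2-high and FOLR1-high were not compared, as neither reached 50 counts, and their intervals overlap. The entries nearest in pattern were TTC3 (0.06), KRT10 (0.18) and the joint entry of CCPG1, DNAAF4-CCPG1 and DNAAF4 (0.19), at greater distances than for the other ORMDL genes.

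ORMDL3 lies at chr17:39921041-39927601 on the minus strand, on the same arm as ERBB2, whose counts helped define the ERBB2-high class. ERBB2, which encodes a receptor tyrosine kinase, starts 239.7 kb from the ORMDL3 start on the side of lower coordinates, and its own difference is set by the rule. Of a list of 27 neighbouring genes, 18 had enough counts against each other class. Against RARRES2-high, 14 were higher in ERBB2-high and 0 lower, and against FOLR1-high 13 were higher and 0 lower, ERBB2 itself among both, beside the background shares given above. Between RARRES2-high and FOLR1-high, 2 were higher and 1 lower. After centring the first 2 counts were 12 and 10, without CDK12 and CASC3 over RARRES2-high and without CDK12, MED1 and MSL1 over FOLR1-high. In any pair 16 of 18 were called. The median log2 ratio of all 18 was 1.62 over RARRES2-high and 1.71 over FOLR1-high, and without ERBB2 it was 1.49 and 1.51. ORMDL3 sat inside this stretch, with 2.17 and 1.47.

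The differences were not even along the stretch. PPP1R1B, a phosphatase inhibitor 300.9 kb from ORMDL3, stood at 425 CPM in ERBB2-high, at least 476.6-fold higher than in RARRES2-high (0 counts, set to the floor of 3) and 479-fold (187 to 1762) higher than in FOLR1-high. STARD3, a cholesterol transfer protein at 290.5 kb, stood 9.62-fold (7.58 to 12.4) over RARRES2-high and 16.1-fold (12.4 to 21.4) over FOLR1-high. PSMD3, a proteasome subunit and the nearest gene with enough counts at 53.2 kb on the other side, stood 3.35-fold (2.91 to 3.87) and 3.75-fold (3.29 to 4.29) higher. MED1 and CDK12, at 476.3 and 465.8 kb, were 2.65-fold and 2.22-fold over RARRES2-high and 2.62-fold and 2.63-fold over FOLR1-high. PNMT, PGAP3 and MIEN1 were higher in ERBB2-high in both comparisons too, as were NR1D1 and MSL1, while GRB7, CASC3, WIPF2, THRA and RARA passed 2-fold in 1 of the 2. CDC6 and MED24 passed in neither, and at 360 kb the log2 ratio of CDC6 over FOLR1-high was -0.20. The genes directly beside ORMDL3 gave almost no reads: ZPBP2, LRRC3C and GSDMA had 0 counts in every class, IKZF3 had 3 in ERBB2-high, and GSDMB had 3, 3 and 5. No copy number was measured, and whether the level of ORMDL3 and of its neighbours share a source was not tested.

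**Figure D2:**
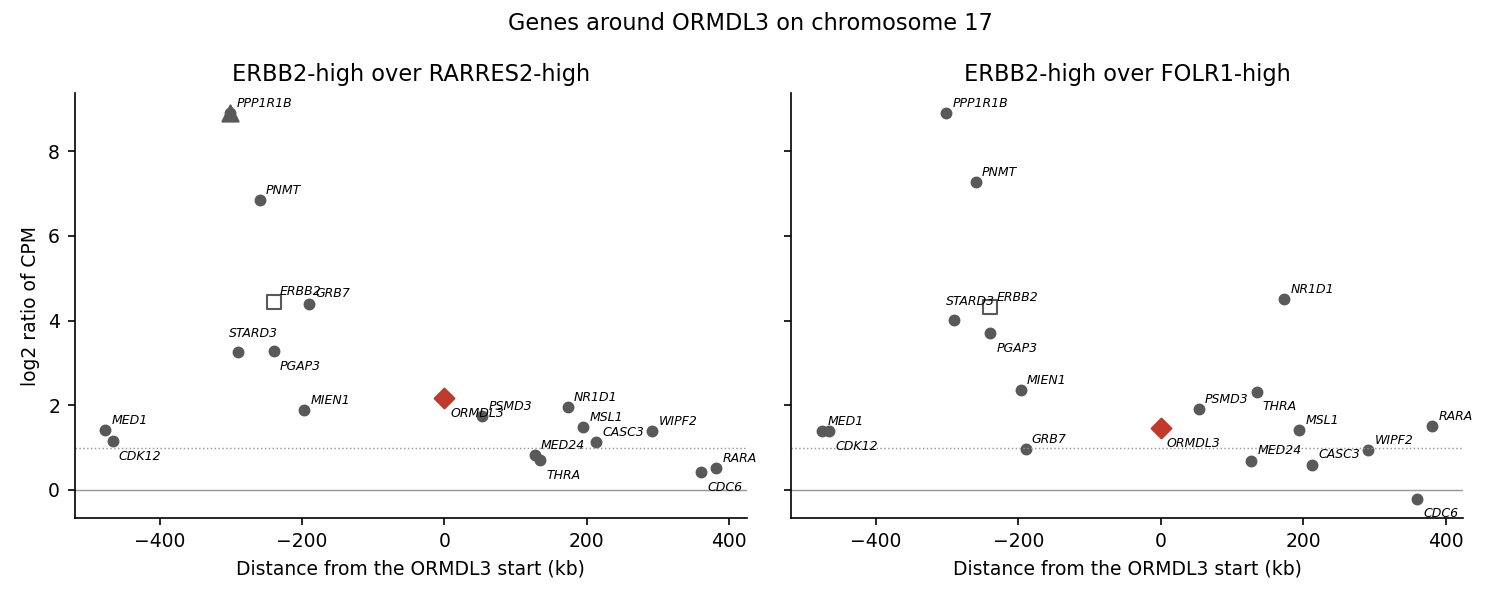
Log2 ratio of CPM (vertical axis) of ORMDL3 (red diamond) and neighbouring genes with at least 50 counts in the 2 classes together, against distance from the ORMDL3 start in kb. The solid line is 0 and the dotted line the 2-fold limit, the triangle is a lower bound (0 counts in the second class), the open square is ERBB2, used to define the class, and ORMDL3 lies at 2.17 and 1.47.

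The enzymes that act after serine palmitoyltransferase were each lowest in FOLR1-high. KDSR, the 3-ketodihydrosphingosine reductase, stood at 51.1 CPM (176 counts), 53.5 CPM (180 counts) and 26.1 CPM (118 counts) in ERBB2-high, RARRES2-high and FOLR1-high. CERS2, the ceramide synthase that uses very-long-chain acyl groups, stood at 105 CPM (363 counts), 94.4 CPM (318 counts) and 47.2 CPM (213 counts). DEGS1, the dihydroceramide desaturase, stood at 79.9 CPM (275 counts), 68.6 CPM (231 counts) and 37.9 CPM (171 counts). For all 3 enzymes ERBB2-high and RARRES2-high were close, with ratios of 0.96 (0.77 to 1.18), 1.12 (0.96 to 1.30) and 1.16 (0.97 to 1.39), and the interval of FOLR1-high lay below both.

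ERBB2-high over FOLR1-high was 1.96-fold (1.54 to 2.49) for KDSR, 2.24-fold (1.88 to 2.66) for CERS2 and 2.11-fold (1.74 to 2.57) for DEGS1. RARRES2-high over FOLR1-high was 2.05-fold (1.61 to 2.60), 2.002-fold (1.68 to 2.39) and 1.81-fold (1.48 to 2.22). Centring brought the ERBB2-high over FOLR1-high log2 ratios from 0.97, 1.16 and 1.08 to 0.52, 0.71 and 0.63. The direction was therefore the same on either scaling, and the 2-fold calls were not. SPTLC2 thus stood highest in the class in which these 3 enzymes stood lowest.

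ORMDL1 was the only one of these genes called for a difference in the proportions of its transcripts. A gene was called when the share of 1 transcript differed by at least 20 percentage points with at least 50 counts in both classes. Of the 7 genes with at least 2 listed transcripts, 6 had enough counts, and 1 was called; ORMDL3 had too few counts, and SPTLC2 and SPTSSA have 1 listed transcript each. Over all single-gene entries 4.66% were called in any pair, 2.43% for ERBB2-high against RARRES2-high, 2.21% for ERBB2-high against FOLR1-high and 3.3% for RARRES2-high against FOLR1-high.

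ORMDL1 transcripts with the extra exon (ENST00000392349) held 53.1% (47.6 to 58.8) of the gene's counts in RARRES2-high, 19.2% (15.6 to 23.3) in ERBB2-high and 11.04% (7.62 to 15.3) in FOLR1-high. The form without it (ENST00000392350) held 40.1% (34.9 to 45.8), 69.999% (65.3 to 74.2) and 76.3% (70.7 to 81.0). Over all cells of a class, the leading form was thus the one with the extra exon in RARRES2-high and the one without it in the other classes. RARRES2-high exceeded FOLR1-high by 42.1 points, rank 15 of 4116 entries by size, and ERBB2-high by 34.0 points, rank 19 of 4239, where the median entry differed by 3.51 and 3.22 points. ERBB2-high and FOLR1-high differed by 8.13 points. The other listed form of note is ENST00000325795, whose first exon begins inside the first intron of the others at 189783382. It held 10.6% in ERBB2-high, 6.58% in RARRES2-high and 12.7% in FOLR1-high. Its first exon runs to 189782422 and so covers the 110 bases of the extra exon, without the joins that mark ENST00000392349.

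All 3 of these ORMDL1 forms encode the same 153 residues, since the coding exons are shared and the extra exon lies before the start codon. The listed forms also differ at the 3′ end: the form with the extra exon ends at 189771312 and the form without it at 189770323. The choice of the extra exon and the choice of 3′ end cannot be told apart from these 2 names. The difference appeared in single cells as well. Among RARRES2-high cells in which ORMDL1 counts were assigned whole, 89 had the extra-exon form only, 70 had other forms only and 26 had both. In ERBB2-high these numbers were 33, 160 and 22, and in FOLR1-high 13, 167 and 2. Of the extra-exon counts, 89.7% in RARRES2-high, 70.04% in ERBB2-high and 61.3% in FOLR1-high were whole estimates, not divided between forms.

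Sequencing depth moved with the RARRES2-high value, and its part was not tested. In cells with 4000 counts or more the extra-exon share was 55.2% in RARRES2-high, 19.7% in ERBB2-high and 11.3% in FOLR1-high, and in cells from 1000 to under 4000 counts it was 33.3% (16.7 to 51.4), 16.7% and 9.40%, from 31, 70 and 39 counts. In those shallower RARRES2-high cells the form without the extra exon led, with 55.9% (36.0 to 72.7), so the leading form of that class differed between the depths. With the stricter marker limit of 90% the RARRES2-high share was 61.6%, so it was higher in cells with purer marker counts. The order of the classes by extra-exon share was the same in each of these.

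**Figure D3:**
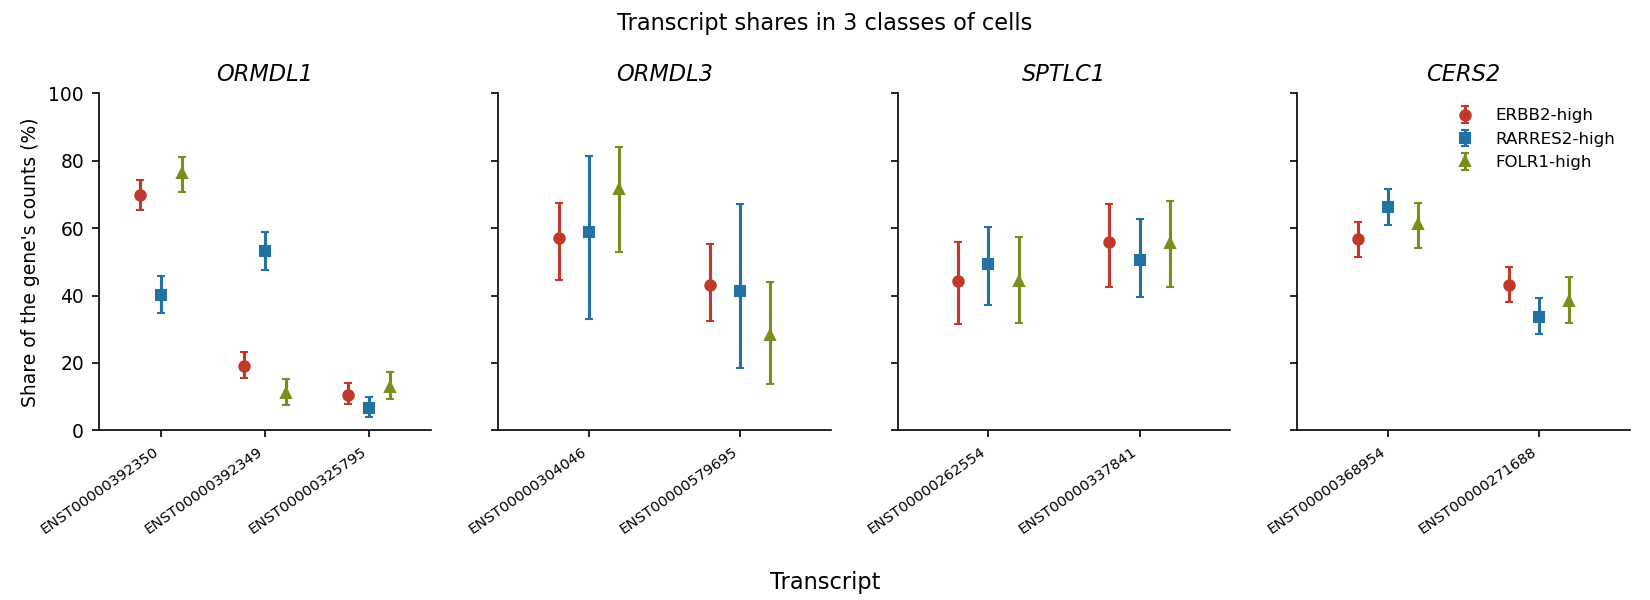
Share of a gene's counts (vertical axis, %) held by each main transcript of the 4 genes with more than 1 main form, in the 3 classes, with bars for 95% Clopper-Pearson intervals. For ORMDL1 the RARRES2-high class stands at 53.1% for ENST00000392349 against 19.2% and 11.04%. The intervals of the classes overlap for ORMDL3, SPTLC1 and CERS2.

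SPTLC1 was split nearly evenly between a long and a short form in every class. The long form (ENST00000262554, chr9:92031999-92115376, 15 exons, 473 residues) held 44.2% (31.6 to 56.0) in ERBB2-high, 49.4% (37.2 to 60.3) in RARRES2-high and 44.4% (31.9 to 57.5) in FOLR1-high. The short form (ENST00000337841, 6 exons) leaves the long one after exon 5, as the joins printed above show, and its 143 annotated residues end in an exon of its own. It held 55.8%, 50.6% and 55.6%. No pair of classes differed by more than 5.16 points, and over 91% of these counts were assigned whole, so few of them were divided between forms. Counts of the long form alone were 30.5, 38.5 and 28.0 in the 3 classes.

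ORMDL3 had a pair of forms that differ by a shift of the exon 2 acceptor from 39924225 to 39924220, before a shared coding region of 153 residues. The longer one (ENST00000304046) held 57.0% (44.7 to 67.6) in ERBB2-high, 58.7% (32.9 to 81.6) in RARRES2-high and 71.6% (53.0 to 84.1) in FOLR1-high. With 17 and 37 counts in the latter classes, no difference was detectable at this depth. CERS2 had a similar pair, with acceptors at 150969131 and 150969091 before a shared coding region of 380 residues. The form with the nearer acceptor to the start codon (ENST00000368954) held 56.8% (51.5 to 61.9) in ERBB2-high, 66.4% (60.9 to 71.5) in RARRES2-high and 61.1% (54.1 to 67.6) in FOLR1-high, a difference of at most 9.60 points, rank 591 of 4239 for ERBB2-high against RARRES2-high. Only 22.01 to 41.7% of CERS2 estimates were whole, so most of these shares rest on divided reads.

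ORMDL2, KDSR and DEGS1 each had 1 main form. ENST00000243045 held 96.5%, 96.6% and 97.0% of ORMDL2 counts, ENST00000406396 held 99.7%, 99.997% and 99.15% of KDSR counts, and ENST00000323699 held 97.1%, 98.0% and 98.2% of DEGS1 counts. SPTSSA had 1 listed transcript, ENST00000298130, with 2 exons and 71 residues.

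The FOLR1-high class held 2 states, described by the ratio of CXCL14, a chemokine, to DEFB1, a defensin. With at least 4 counts of these genes together, 181 cells had at least 75% CXCL14 and 62 cells at most 25%. None of the 4 genes with 50 counts in the higher state was called, beside 6.56% of all entries higher in the CXCL14 state and 5.7% higher in the DEFB1 state. SPTLC2 stood at 134 CPM (113 to 159) in the CXCL14 state and 71.0 CPM (48.9 to 99.7) in the DEFB1 state, a ratio of 1.89 (1.29 to 2.86) that lies just under the limit. SPTSSA stood at 68.7 CPM and 36.6 CPM, a ratio of 1.88 (1.09 to 3.41). The extra-exon share of ORMDL1 was 5.47% (1.03 to 13.7) and 6.43% (0.95 to 25.1). Either state held more SPTLC2 than RARRES2-high, at 16.04 CPM, and a smaller share of the extra-exon form.

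Beyond the 9 genes, a list of 52 other sphingolipid genes, all present in the table, had 30 members with enough counts in some pair, and 20 were called, a share not far from the 59.3% of all entries. Against RARRES2-high, 9 of 29 were higher in ERBB2-high and 3 lower, beside 21.8% and 13.8% of all entries. Against FOLR1-high, 9 of 27 were higher in ERBB2-high and 3 lower, beside 26.3% and 10.2%. For RARRES2-high against FOLR1-high, 6 of 23 were higher and 3 lower, beside 22.7% and 13.7%. After centring these were 7 and 5, 4 and 3, and 6 and 5. Of the genes named below, CERK and SGPP2 were then called in no pair, CERS5 was no longer called for ERBB2-high over RARRES2-high (log2 ratio 0.83), and ASAH1, ALDH3A2 and CPTP were no longer called for ERBB2-high over FOLR1-high (0.79, 0.89 and 0.96). Newly called among the genes named below were CERS6 and ALDH3A2, both lower in RARRES2-high than in FOLR1-high (centred log2 ratios -1.17 and -1.04). The list's median log2 ratios were 0.48, 0.70 and -0.05, beside the medians of all entries given above.

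Among other genes of synthesis, both alternative subunits were called in at least 1 pair of classes. SPTLC3, which can replace SPTLC2 and makes shorter bases, stood at 19.5 CPM in ERBB2-high, 7.13 CPM in RARRES2-high and 1.33 CPM in FOLR1-high, the class with the most SPTLC2. ERBB2-high was 14.6-fold (6.39 to 41.3) over FOLR1-high. SPTSSB, the other small subunit, was at 15.7 CPM in RARRES2-high and had 3 counts in each of the other classes, a ratio of 18.1 (5.85 to 90.4) over ERBB2-high and 23.7 (7.68 to 119) over FOLR1-high, while SPTSSA was flat. CERS5, a ceramide synthase for palmitoyl groups, stood at 28.8, 14.0 and 9.30 CPM. CERS6, another ceramide synthase, stood at 24.7, 13.7 and 27.0 CPM in ERBB2-high, RARRES2-high and FOLR1-high. It was called in no pair on all counts and, unlike CERS2, was not lowest in FOLR1-high. RTN4, the reticulon Nogo, which is known to restrain serine palmitoyltransferase in endothelium, stood at 508 and 365 CPM in ERBB2-high and RARRES2-high and at 109 CPM in FOLR1-high.

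Of the enzymes that use ceramide, UGCG, the glucosylceramide synthase, was highest in FOLR1-high at 106 CPM, 2.87-fold (2.35 to 3.52) over ERBB2-high at 36.9 CPM, and SGMS1, a sphingomyelin synthase, stood 3.41-fold (2.06 to 5.94) higher in FOLR1-high than in RARRES2-high. SAMD8, CERK and A4GALT were called too, each higher in ERBB2-high in 1 pair, where the log2 ratio of CERK over FOLR1-high was 1.11 and became 0.66 after centring, with A4GALT also 2.52-fold higher in FOLR1-high than in RARRES2-high. Among lysosomal and other breakdown enzymes, GLA, the alpha-galactosidase, stood at 112 CPM in FOLR1-high against 22.9 and 33.6 CPM. SMPD1 and SMPD4 were higher in RARRES2-high than in FOLR1-high, by 3.96-fold and 2.53-fold. SMPD4 was also called higher in RARRES2-high than in ERBB2-high, with a log2 ratio of ERBB2-high over RARRES2-high of -1.02. SMPD2 was higher in ERBB2-high than in RARRES2-high by 2.80-fold.

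Of the genes of the ceramidases and of sphingosine 1-phosphate, the signalling lipid made from ceramide's base, 4 of 7 with enough counts were higher and 1 lower in ERBB2-high than in RARRES2-high, and 4 of 6 were higher and 0 lower in ERBB2-high than in FOLR1-high. For RARRES2-high against FOLR1-high, 1 of 5 was higher and 0 lower, and the shares over all entries are those given above. After centring these counts were 3 higher and 1 lower, 1 and 0, and 1 and 1. SPHK1, the kinase that makes it, stood at 53.5 CPM (180 counts) in RARRES2-high, 5.52 CPM (19 counts) in ERBB2-high and 0.89 CPM (4 counts) in FOLR1-high. RARRES2-high was 9.69-fold (6.02 to 16.5) over ERBB2-high and 60.3-fold (23.2 to 224) over FOLR1-high. Several enzymes of the opposite or later steps were highest in ERBB2-high: the phosphatase SGPP1 at 20.04 CPM against 4.16 and 4.87, SGPP2 at 15.98 CPM against 7.43 and 7.31 (log2 ratios of 1.11 and 1.13, and 0.89 and 0.68 after centring), and the fatty aldehyde dehydrogenase ALDH3A2 at 60.1 CPM against 13.1 and 23.7. ASAH1, the acid ceramidase, stood at 111 CPM in ERBB2-high against 36.5 and 47.0 CPM. Of the transfer proteins, CPTP was 3.48-fold (2.29 to 5.41) higher in RARRES2-high than in FOLR1-high. None of the 7 receptors and exporters on the list had 50 counts in any class.

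**Figure D4:**
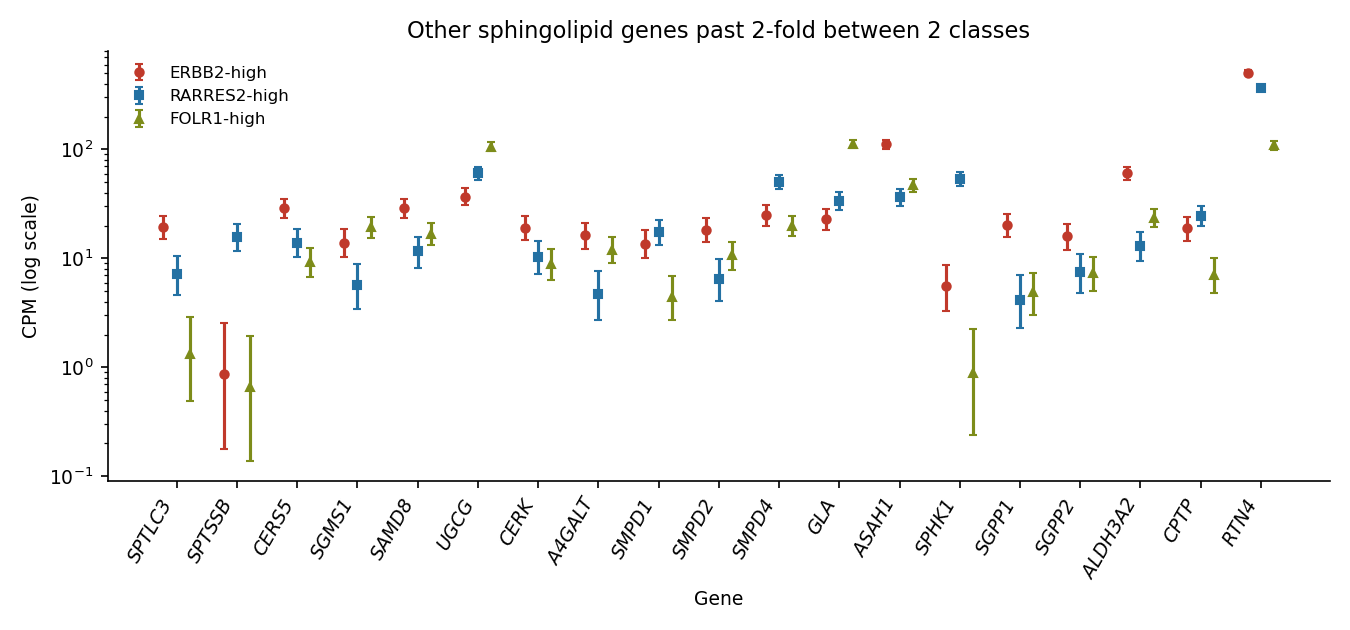
Level in CPM (vertical axis, log scale) of other sphingolipid genes that differed 2-fold in at least 1 pair of classes, with bars for 95% Poisson intervals. SPHK1 and SPTSSB are highest in RARRES2-high at 53.5 and 15.7 CPM, and UGCG and GLA in FOLR1-high at 106 and 112 CPM.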

How the data were processed

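The authors deposited a matrix of estimated counts (expected counts, not normalised) per transcript and cell barcode of the PromethION library, and a table of transcript positions. Cell Ranger 6.0.1 and GRCh38 are named per the submitters' processing notes, and the design text names Isosceles, a long-read quantification package. Not given in the sources used here are the aligner, the annotation release and whether molecular identifiers were collapsed. Estimates are divided between transcripts of a gene entry: 49.5% of matrix values were whole within 0.01, against 100% of sums per gene entry and barcode. Counts were summed per class and rounded for intervals. With 1 library a class, no test was run. A count of 0 was set to a floor of 3 in ratios.

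The genes, lists and limits were chosen with earlier results of these data known. Named were the 9 genes and their transcripts with at least 10% of counts in any class. Also named were genes of the pathway and neighbour lists past 2-fold in any pair, and the 3 nearest patterns of each ORMDL gene. CDC6, MED24, CERS6 and the neighbours near 0 counts were named after their values were seen. A called member of the pathway list is not reported here by name. Ribosomal protein genes were taken with their pseudogenes. Scrublet ran in scanpy 1.11.5 (expected rate 0.02, seed 0) as a check, other steps in Python 3.11.15 with numpy 2.4.6 and scipy 1.17.1. The counting of calls was tested on simulated data. Sequences are from GRCh38 with GENCODE release 29 and from RefSeq. No protein sequences were used.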

Additional observations from a re-analysis of the deposited data

How the results depend on the processing

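No paired analysis was possible because each platform had 1 library and no result comes from a test. Alternatives covered the minimum of counts, the marker limit, doublets, scaling, single-cell means, depth, and the limits of each call. Of 65 recomputed counts 52 stayed within 1.5 times. Genes past 2-fold in any pair (6) were 3 without mitochondrial and ribosomal protein genes (ORMDL2, ORMDL3 and SPTLC2), 2 after centring on the median entry (chosen after seeing the data), 2 in cells under 4000 counts (ORMDL2 and SPTLC2, with 14, 0 and 8 counts of ORMDL3), and 2 at a 3-fold limit. In cells under 4000 counts the neighbours past 2-fold (16) were 5, the pathway genes (20) were 4, and genes past 20 points of transcript share (1) were 0. There ORMDL1 had 31 counts in RARRES2-high, under the minimum, and its extra-exon share was 33.3% against 16.7% in ERBB2-high. At 3-fold the neighbours were 10 and the pathway genes 13, and with at least 100 counts the pathway genes were 8. Genes called between the states (0) were 2 without mitochondrial and ribosomal protein genes (SPTLC2 and SPTSSA), 1 by single-cell means (SPTSSA) and 1 in cells of 4000 counts or more (SPTLC2). ORMDL1 and KDSR were not called at a marker limit of 60%, ORMDL1 was not and ORMDL2 was by single-cell means, KDSR was not in cells of 4000 counts or more, and ORMDL3 was not with at least 100 counts in the higher class. No called ratio changed sign. The log2 ratio of SPTLC2 ranged from -3.12 to -2.73 for RARRES2-high over FOLR1-high. That of ORMDL3 ranged from 1.95 to 2.47 for ERBB2-high over RARRES2-high, apart from cells under 4000 counts. There, 0 counts in RARRES2-high, set to the floor of 3, gave a value of 1.18 that depends on the floor and is not a lower bound. ORMDL3 and SPTLC1, with 17 to 78 counts in a class, are limited by depth.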

Other observations

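The 244 barcodes with at least 1000 counts in no class lay between the classes for most of the genes. SPTLC2 stood at 35.8 CPM (27.2 to 46.3), ORMDL3 at 5.56 CPM (2.54 to 10.6, 9 counts) and the extra-exon share of ORMDL1 at 35.9% (28.4 to 44.1, 153 counts). In the 333 barcodes with under 1000 counts, CERS2 had 11 counts, the most of the 9 genes, and ORMDL3 had 1.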
